A study of Mus musculus with 4 samples.

Results

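The genes of the Polycomb repressive complexes described here were Ezh1, Ezh2, Eed, Suz12, Jarid2, Bmi1, Cbx7, Cbx8, Ring1 and Rnf2. They were taken by name from an RNA-seq table of 23552 genes, in which all 10 were found, and all 10 were among the 13736 genes with a mean level of at least 0.5 FPKM (fragments per kilobase of exon, scaled to the mapped fragments of a library). None of the 10 differed between leukemic cells with and without Suv39h1 overexpression at the threshold for a differentially expressed gene (DEG), an adjusted p-value under 0.05 and a log2 fold change of 1 or more in size. Ezh1 and Cbx7 were higher in both SUV-OE libraries, with the largest fold changes of the 10 with all 4 libraries in the limma fit (not without control replicate 4 or without SUV-OE replicate 2). Rnf2 was also higher in both, and Suz12, Eed and Bmi1 were lower in both SUV-OE libraries than in either control library. Of all tested genes, 25.4% were higher and 28.4% were lower in both SUV-OE libraries.

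The cells were c-Kit+ cells enriched from the bone marrow of moribund C57BL/6 mice (C57BL/6J, young adult females, in the study's methods) with acute myeloid leukemia (AML) driven by the MLL-AF9 fusion gene (MA9). Serially passaged MA9 cells carried either a lentiviral eGFP vector (control, 2 libraries, replicates 3 and 4) or the same kind of vector with Suv39h1 and eGFP (SUV-OE, 2 libraries, replicates 2 and 3), so both groups carried the fusion gene and eGFP. Suv39h1 is an H3K9 methyltransferase that was expressed from the vector on top of the cells' own gene. The labels do not say whether the 2 libraries of a group came from separate mice, and the p-values therefore measure the spread between these libraries. Suv39h1 itself was at 12.4 FPKM in both control libraries and at 75.3 and 81.2 FPKM in the SUV-OE libraries, a log2 fold change of 2.56 in the limma fit (adjusted p = 0.00866). Kit, which encodes the surface receptor used for enrichment, was at 20.4 and 19.2 FPKM in the control and at 28.6 and 25.4 FPKM in the SUV-OE libraries. All 4 libraries belonged to RNA-seq batch 2, and the depth factors behind their FPKM values lay between 16873767 and 19453055 reads. Genes of neutrophil granule and other effector proteins differed widely in sum, at 727 and 2335 FPKM in the control and 6532 and 7951 FPKM in the SUV-OE libraries, and all 8 listed genes were higher in both SUV-OE libraries, where 25.4% of all tested genes were. The summed B-lymphoid markers were at 18.4 and 27.2 FPKM against 32.3 and 65.9 FPKM, with 6 of 7 genes higher in both SUV-OE libraries. Most of the control sum was Cd79b, which overlapped between the groups (17.4 and 25.01 against 17.2 and 23.4 FPKM). Erythroid markers summed to 12.2 and 113 FPKM in the control and 84.1 and 59.2 FPKM in the SUV-OE libraries, with 4 of 6 genes higher in both SUV-OE libraries, and endothelial and stromal markers summed to 17.8 and 24.7 against 72.7 and 65.7 FPKM, with 3 of 6 genes higher. Nearly all of that sum was Pecam1 (16.7 and 23.3 against 70.3 and 64.1 FPKM), and the other 5 genes were under 1 FPKM in every library. T and NK cell markers summed to 1.04 FPKM or less in every library. No gene of these marker lists was at 0 in every library. Myeloid progenitor markers summed to between 753 and 816 FPKM in all 4 libraries, with 4 of 9 genes higher and 2 lower in both SUV-OE libraries. The part of these other cells in the levels of the Polycomb genes was not tested, and a smaller number of cells of a type cannot be told apart from less RNA per cell in such bulk samples.

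Polycomb proteins keep developmental genes silent by modifying histones. Polycomb repressive complex 2 (PRC2) places methyl groups on lysine 27 of histone H3 through its catalytic subunit, EZH2 in dividing cells and EZH1 more often in resting and differentiated cells, and needs EED and SUZ12 for its activity. Polycomb repressive complex 1 (PRC1) adds ubiquitin to histone H2A through the RING1 or RNF2 subunit, paired with a PCGF protein such as BMI1, and its canonical form carries a CBX protein that reads the mark of PRC2. In hematopoiesis and in MLL-rearranged leukemia, BMI1 and the PRC2 core are known for sustaining self-renewal, in part through silencing of the Cdkn2a locus.

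The start regions of 3 PRC2 genes are shown because Ezh2 and Suz12 were the only members whose windows held the letters of an E2F site, the element through which many cell cycle genes are controlled, and because Ezh1 is the paralogue of Ezh2. The RefSeq windows for GRCm38.p6, from 250 bases before to 50 bases after the start of a gene, matched all 10 members. TTTCCCGC, TTTCGCGC, TTTGCCGC and TTTGGCGC were searched on both strands, and 2 of the 10 members had a match, while 2.26% of all 32851 windows in the table had one. The match in Suz12 began 219 bases before the start, and that in Ezh2 began at base 4 after the RefSeq start. The GENCODE M21 gene, whose limits are given with the values of Ezh2, begins farther upstream than this RefSeq start, so the match lies inside that gene. The sequences run from 5′ to 3′ on the strand of the gene, and capitals mark the match. A match of letters is a description and not a bound site, and its absence from the Ezh1 window says only that the letters were not there.
Suz12, the 250 bases before the start, chr11:79992856-79993105, + strand: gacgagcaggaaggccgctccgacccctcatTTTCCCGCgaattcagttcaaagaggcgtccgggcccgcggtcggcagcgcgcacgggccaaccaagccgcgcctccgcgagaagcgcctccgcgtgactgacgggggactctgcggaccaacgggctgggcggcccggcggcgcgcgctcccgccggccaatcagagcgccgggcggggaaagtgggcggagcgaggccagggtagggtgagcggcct
Ezh2, 30 bases around the match, chr6:47595009-47595038, - strand: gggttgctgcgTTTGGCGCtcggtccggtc
Ezh1, the 250 bases before the start, chr11:101226464-101226713, - strand: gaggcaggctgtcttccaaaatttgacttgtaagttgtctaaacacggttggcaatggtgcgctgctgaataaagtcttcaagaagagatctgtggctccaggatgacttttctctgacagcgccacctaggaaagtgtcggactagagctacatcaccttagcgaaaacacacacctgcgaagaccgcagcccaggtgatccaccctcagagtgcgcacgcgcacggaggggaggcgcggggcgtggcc

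The 10 genes covered a wide span of expression. FPKM is scaled by exon length, so that levels of different genes can be set side by side. Suz12 was the highest, with a mean of 43.7 FPKM over the 4 libraries, and its lowest library lay above the highest library of every other member. Ezh2 (20.5 FPKM), Bmi1 (18.6 FPKM), Eed (18.0 FPKM), Rnf2 (15.7 FPKM), Jarid2 (15.6 FPKM) and Ring1 (13.0 FPKM) followed, and each of these neighbours in the order overlapped with the next. Below them, and apart from Ring1, came Cbx8 (7.60 FPKM) and Ezh1 (6.36 FPKM), which overlapped with each other. Cbx7 was the lowest at 2.53 FPKM and lay apart from Ezh1. Thus the mean levels ran from the 28.95 to the 90.04 percentile of the tested genes, and 217 to 4711 reads stood behind each value, which gives a counting error of between 1.46% and 6.79% (SD as a share of the value). Libraries of the same group differed by more than this counting error in 7 of the 10 genes in the control group and also in 7 of 10 in the SUV-OE group, by the 95% interval of the ratio of their reads. The ratio between libraries of a group went up to 1.40 in the control group (Ring1) and 1.24 in the SUV-OE group (Cbx8).

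**Figure D1:**
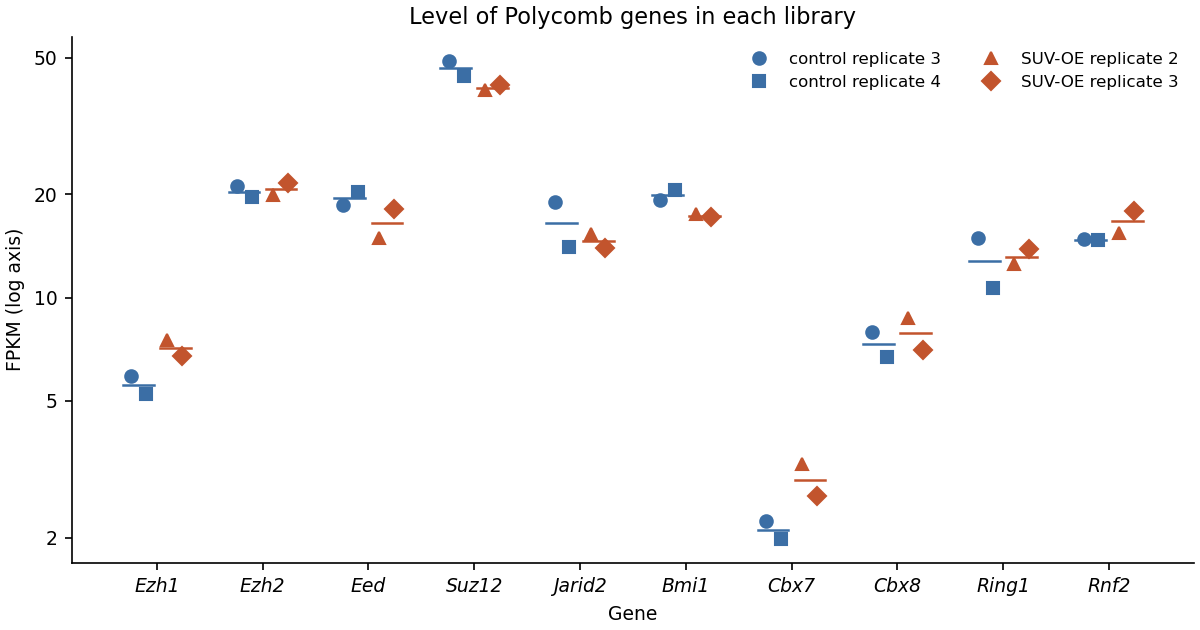
FPKM of the 10 Polycomb genes (log axis) in each of the 4 libraries. Points are libraries and horizontal lines are group means (n = 2). Ezh1, Cbx7 and Rnf2 have both SUV-OE points above both control points, Eed, Suz12 and Bmi1 have both below, and the other 4 genes overlap.

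Among the catalytic subunits of PRC2, Ezh1 separated the groups and Ezh2 did not. Ezh1 (ENSMUSG00000006920, chr11:101191115-101226463, mm10, - strand), the less active methyltransferase, was at 5.91 and 5.25 FPKM in control replicates 3 and 4 and at 7.51 and 6.78 FPKM in SUV-OE replicates 2 and 3. Neither SUV-OE library reached down to the control range, and their mean was 28.05% higher. The log2 fold change was 0.31 ± 0.13 (SE, 95% interval -0.021 to 0.64), which did not pass the test (limma adjusted p = 0.263). Ezh2 (ENSMUSG00000029687, chr6:47530139-47595341, - strand), the main methyltransferase of proliferating cells, was at 21.1 and 19.6 FPKM in the control and 19.9 and 21.5 FPKM in the SUV-OE libraries. The groups overlapped, and the log2 fold change was 0.024 with a 95% interval of -0.27 to 0.32 (limma, adjusted p = 0.923). On the interval, a difference in Ezh2 as large as the DEG threshold would have lain outside in either direction.

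The ratio of Ezh1 to Ezh2 within a library was 0.281 and 0.268 in the control and 0.377 and 0.315 in the SUV-OE libraries. The ratio was thus higher in both SUV-OE libraries, by 1.26-fold on average (a log2 difference of 0.33, which was 0.20 without SUV-OE replicate 2), while Ezh2 stayed the more abundant transcript in all 4. The ratio is given as a description, with no test.

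The non-catalytic core members Eed and Suz12 were lower in both SUV-OE libraries, as were 28.4% of all tested genes, and neither passed the test. Eed (ENSMUSG00000030619, chr7:89954654-89980983, - strand), whose protein binds methylated H3 and stimulates the enzyme, was at 18.7 and 20.4 FPKM in the control and 14.9 and 18.1 FPKM in the SUV-OE libraries. The SUV-OE libraries lay below the control libraries, by 15.6% of the mean, but SUV-OE replicate 3 came close to control replicate 3. The log2 fold change of Eed was -0.24 (95% interval -0.60 to 0.13, limma adjusted p = 0.403). Suz12 (ENSMUSG00000017548, chr11:79993106-80034123, + strand), the scaffold of PRC2, was at 49.0 and 44.1 FPKM in the control and 40.3 and 41.5 FPKM in the SUV-OE libraries. These groups did not overlap either, with a log2 fold change of -0.18 (95% interval -0.49 to 0.13, limma adjusted p = 0.451), which was -0.034 after quantile normalization. Jarid2 (ENSMUSG00000038518, chr13:44729474-44921643, + strand), an accessory subunit that helps to bring PRC2 to chromatin, was at 18.9 and 14.0 FPKM in the control and 15.3 and 14.0 FPKM in the SUV-OE libraries. Here the control libraries differed from each other by 1.35-fold, more than the groups did. The log2 fold change of Jarid2 was -0.15 (95% interval -0.59 to 0.30, limma adjusted p = 0.665); it was -0.35 without control replicate 4 and 0.056 without control replicate 3.

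Of the PRC1 genes, the E3 ligase subunits showed small differences. Ring1 (ENSMUSG00000024325, chr17:34020792-34024680, - strand) was at 14.9 and 10.6 FPKM in the control and 12.5 and 13.8 FPKM in the SUV-OE libraries. Both SUV-OE values fell between the control values, with a log2 fold change of 0.057 (95% interval -0.42 to 0.53, limma adjusted p = 0.884), which was -0.17 without control replicate 4 and 0.28 without control replicate 3. Rnf2 (ENSMUSG00000026484, chr1:151458004-151500955, - strand), which encodes RING1B, was at 14.8 and 14.7 FPKM in the control and 15.5 and 17.9 FPKM in the SUV-OE libraries. Rnf2 was therefore higher in both SUV-OE libraries, by 13.2% of the mean, and SUV-OE replicate 3 accounted for most of the gap. Its log2 fold change was 0.17 (95% interval -0.15 to 0.48, limma adjusted p = 0.494). The ratio of Ring1 to Rnf2 was 1.01 and 0.724 in the control and 0.810 and 0.771 in the SUV-OE libraries, which overlapped.

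Bmi1 (ENSMUSG00000026739, chr2:18677018-18686629, + strand), the PCGF subunit known for its role in stem cell self-renewal, was at 19.3 and 20.6 FPKM in the control and 17.5 and 17.1 FPKM in the SUV-OE libraries. The libraries of each group lay close together and the groups were apart, by 13.2% of the mean. The log2 fold change of -0.19 did not pass the test (SE 0.11, 95% interval -0.47 to 0.087, limma adjusted p = 0.381), and it was -0.107 after quantile normalization.

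The CBX subunits, which read the PRC2 mark in canonical PRC1, included a member higher in both SUV-OE libraries and a member whose groups overlapped. Cbx7 (ENSMUSG00000053411, chr15:79915807-79971119, - strand), a CBX protein of stem and progenitor cells, was at 2.23 and 1.98 FPKM in the control and 3.27 and 2.64 FPKM in the SUV-OE libraries. It was higher in both SUV-OE libraries, and its mean was 40.0% above that of the control. The log2 fold change was 0.34 ± 0.15 (SE, 95% interval -0.054 to 0.74), which again did not pass the test (limma adjusted p = 0.292). Adding 1 to each FPKM shrinks the fold change of a gene as low as Cbx7. A second fit, limma-voom on the recovered reads (282 and 217 against 376 and 304), was chosen with the data in view and put the difference at a log2 value of 0.47 (95% interval 0.017 to 0.92, adjusted p = 0.193). Cbx8 (ENSMUSG00000025578, chr11:119036305-119040969, - strand), a CBX protein known from MLL-AF9 leukemia as a partner of AF9, was at 7.96 and 6.72 FPKM in the control and 8.71 and 7.03 FPKM in the SUV-OE libraries. The groups overlapped, and the log2 fold change was 0.086 (95% interval -0.32 to 0.49, limma adjusted p = 0.786). The ratio of Cbx7 to Cbx8 was 0.281 and 0.295 in the control and 0.375 in each SUV-OE library, a 1.30-fold higher ratio.

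**Figure D2:**
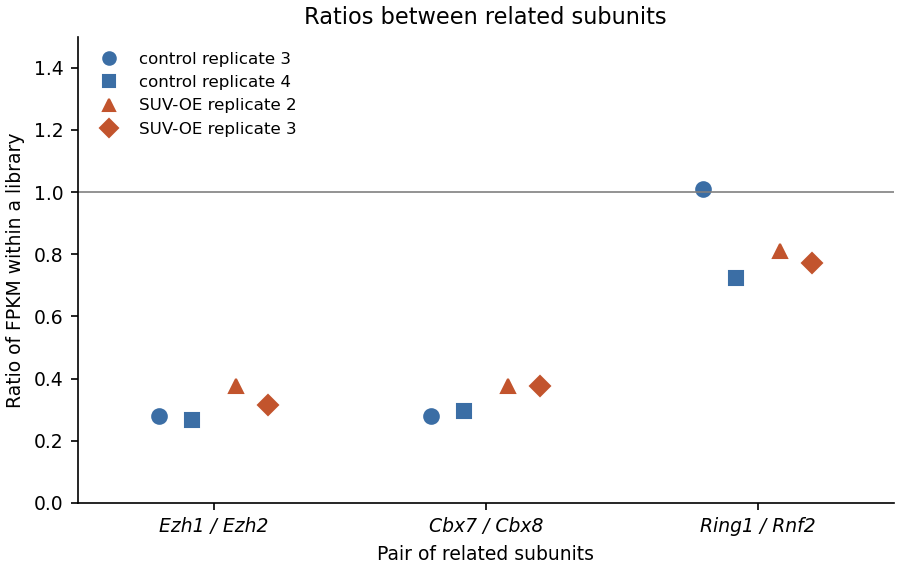
Ratio of the FPKM values of related subunits within each library (points). The ratios of Ezh1 to Ezh2 and of Cbx7 to Cbx8 are higher in both SUV-OE libraries (0.315 to 0.377) than in both control libraries (0.268 to 0.295), and the ratio of Ring1 to Rnf2 overlaps.

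Over the 10 genes, 0 were DEGs, where 1.22% of all tested genes were (168 of 13736), and 0 passed an adjusted p under 0.05 at any fold change, where 1.29% of all tested genes did. At an unadjusted p under 0.05, 0 members passed in the limma fit against 20.7% of all tested genes (10.3% higher and 10.4% lower in SUV-OE). With limma-voom on recovered reads, 0 of the 10 were DEGs against 4.58% of 10423 genes, and 2 had an unadjusted p under 0.05 (Ezh1, adjusted p = 0.197, and Cbx7) against 24.3% of genes. The groups did not overlap in 6 members. Of these, 3 (Ezh1, Cbx7 and Rnf2) were higher in both SUV-OE libraries, where 25.4% of all tested genes were, and 3 (Eed, Suz12 and Bmi1) were lower in both, where 28.4% were. The median log2 fold change of the members was 0.040, and that of all tested genes was -0.022. The 95% intervals of the 10 members lay between -0.60 and 0.74 in log2 fold change, so that a difference of the size of the DEG threshold was outside every interval, whereas smaller differences could not be resolved with 2 libraries per group.

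**Figure D3:**
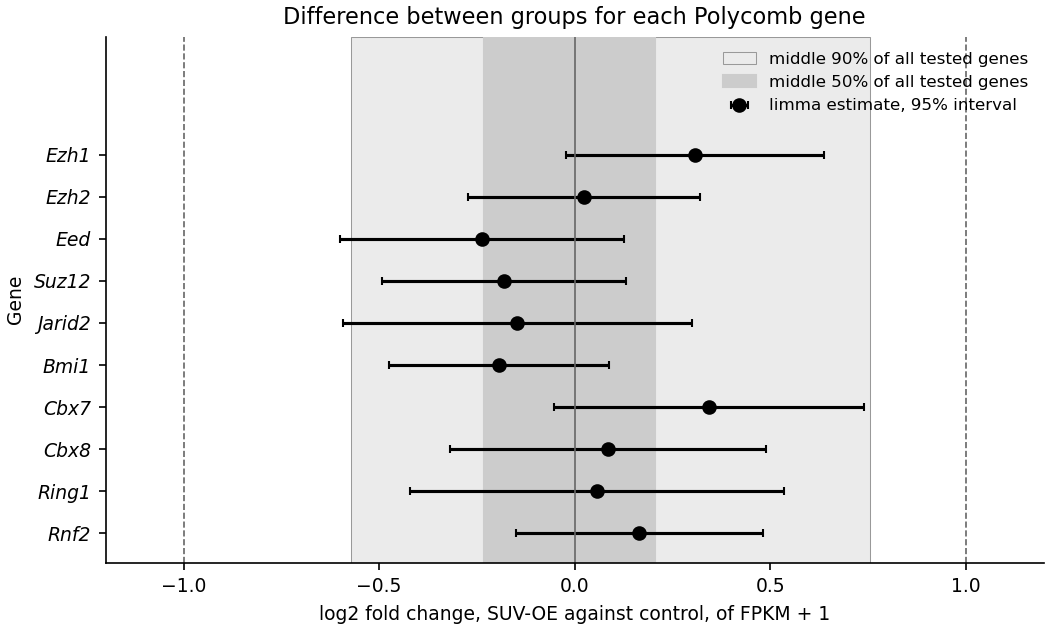
Log2 fold change (SUV-OE against control, of FPKM + 1) of the 10 Polycomb genes with 95% intervals from limma. Dashed lines mark a log2 fold change of -1 and 1, light and dark grey the middle 90% (-0.57 to 0.75) and the middle 50% (-0.23 to 0.21) of all tested genes; every interval reaches across 0 and none reaches the dashed lines.

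Between the groups, Ezh1, Cbx7 and Rnf2 were higher where the neutrophil genes were higher, in the SUV-OE libraries. Within the groups, the summed neutrophil genes were higher in control replicate 4 than in control replicate 3 and higher in SUV-OE replicate 3 than in SUV-OE replicate 2, whereas Ezh1 and Cbx7 were lower in the former library of each of these pairs. The difference of Cbx7 between the control replicates did not exceed counting error. For Rnf2, the library with more neutrophil transcripts in the SUV-OE group was also the higher, and in the control group the values lay close together (14.8 and 14.7 FPKM). The part of neutrophil transcripts in these levels was not tested. Cell cycle genes differed in the opposite direction to Ezh1 and Cbx7. The 14 listed genes summed to 1258 and 1129 FPKM in the control and 854 and 948 FPKM in the SUV-OE libraries, and 12 of the 14 were lower in both SUV-OE libraries (28.4% of all tested genes). With limma 0 of the 14 were DEGs and 5 had an unadjusted p under 0.05, all lower in SUV-OE (10.4% of all tested genes). With limma-voom, 0 of the 11 with recovered reads were DEGs and 5 had an unadjusted p under 0.05 (24.3% of all genes in that fit). The cyclin gene Ccnb1 had a log2 fold change of -0.46, the replicative helicase gene Mcm7 of -0.63, the mitotic gene Birc5 of -0.35 and Pcna, the DNA polymerase clamp, of -0.54 (limma adjusted p between 0.125 and 0.219). Mki67 was the gene higher in both SUV-OE libraries, with a log2 fold change of 0.26. Ezh2, which like these genes is known to be expressed with proliferation, was level between the groups, while Eed, Suz12 and Bmi1 were lower between the groups together with the cell cycle genes. Within the groups the summed cell cycle genes were higher in control replicate 3 and in SUV-OE replicate 3. Suz12 was also higher in both of these libraries, and Bmi1 was lower in both. Eed was lower in control replicate 3 and higher in SUV-OE replicate 3. The differences of Bmi1 in both groups and of Suz12 in the SUV-OE group did not exceed counting error. The part of cell cycling in these levels was not tested.

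The other genes of the Polycomb system were read from 9 lists of subunits, which held 52 genes besides the 10 members. Of these, 46 passed the filter on low values and 0 were DEGs with limma. At an unadjusted p under 0.05, 4 were higher and 3 were lower in SUV-OE, where 20.7% of all tested genes passed. Of the 4, Pcgf2 passed the filter only through the SUV-OE libraries. Their groups did not overlap in 16 genes that were higher and 11 that were lower in SUV-OE (25.4% and 28.4% of all tested genes), and their median log2 fold change was 0.10. With limma-voom, 0 of the 37 genes whose reads were recovered were DEGs, and 9 had an unadjusted p under 0.05, where 24.3% of all genes in that fit did. Of the 9, Sfmbt2 passed the filter on reads only through the SUV-OE libraries.

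In the PRC2 core, Rbbp7, a histone-binding subunit, was at 96.6 and 96.1 FPKM in the control and 72.9 and 75.2 FPKM in the SUV-OE libraries. Its libraries were tight within each group, and the log2 fold change was -0.37 (limma adjusted p = 0.191). Together with Rbbp4, Eed and Suz12, 4 of the 6 core genes were lower in both SUV-OE libraries, where 28.4% of all tested genes were, and 0 of the 6 passed the test after adjustment with limma (1 at an unadjusted p under 0.05, where 20.7% of all tested genes passed). The accessory subunits, which define alternative forms of PRC2, went both ways. Phf1, a Polycomb-like subunit, was at 3.83 and 4.88 FPKM in the control and 7.66 and 7.71 FPKM in the SUV-OE libraries, a log2 fold change of 0.70 (limma adjusted p = 0.101). Phf19, its paralogue, was at 13.0 and 9.63 FPKM in the control and 8.06 and 8.16 FPKM in the SUV-OE libraries, a log2 fold change of -0.42 (limma adjusted p = 0.250). Neither passed the test after adjustment, and 5 of the 8 accessory genes overlapped between groups.

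Among the PCGF genes, Pcgf2, the closest paralogue of Bmi1, was low throughout, at 0.19 and 0.42 FPKM in the control and 0.74 and 1.005 FPKM in the SUV-OE libraries. Its control mean was below the filter, which it passed through the SUV-OE libraries, so its difference is given as a description. The log2 fold change was 0.52 on the FPKM + 1 scale and 1.60 with limma-voom on 13 and 25 against 46 and 63 recovered reads. Bmi1 exceeded Pcgf2 in every library. Pcgf6, a subunit of a variant PRC1, was at 5.07 and 5.34 FPKM in the control and 6.20 and 7.96 FPKM in the SUV-OE libraries, with a log2 fold change of 0.37 (limma adjusted p = 0.260). In the canonical PRC1 list, 5 of 9 tested genes were higher in both SUV-OE libraries, where 25.4% of all tested genes were, and 0 passed the test after adjustment with limma (2 at an unadjusted p under 0.05, where 20.7% of all tested genes passed). Cbx2 was at 1.82 and 1.18 FPKM in the control and 3.23 and 2.97 FPKM in the SUV-OE libraries, a log2 fold change of 0.72 (limma adjusted p = 0.139). Cbx6 was at 3.11 and 2.71 FPKM in the control and 3.88 and 4.63 FPKM in the SUV-OE libraries, a log2 fold change of 0.42 (limma adjusted p = 0.207). Cbx2, Cbx6 and Cbx7 were thus higher in both SUV-OE libraries, and Cbx8 overlapped.

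**Figure D4:**
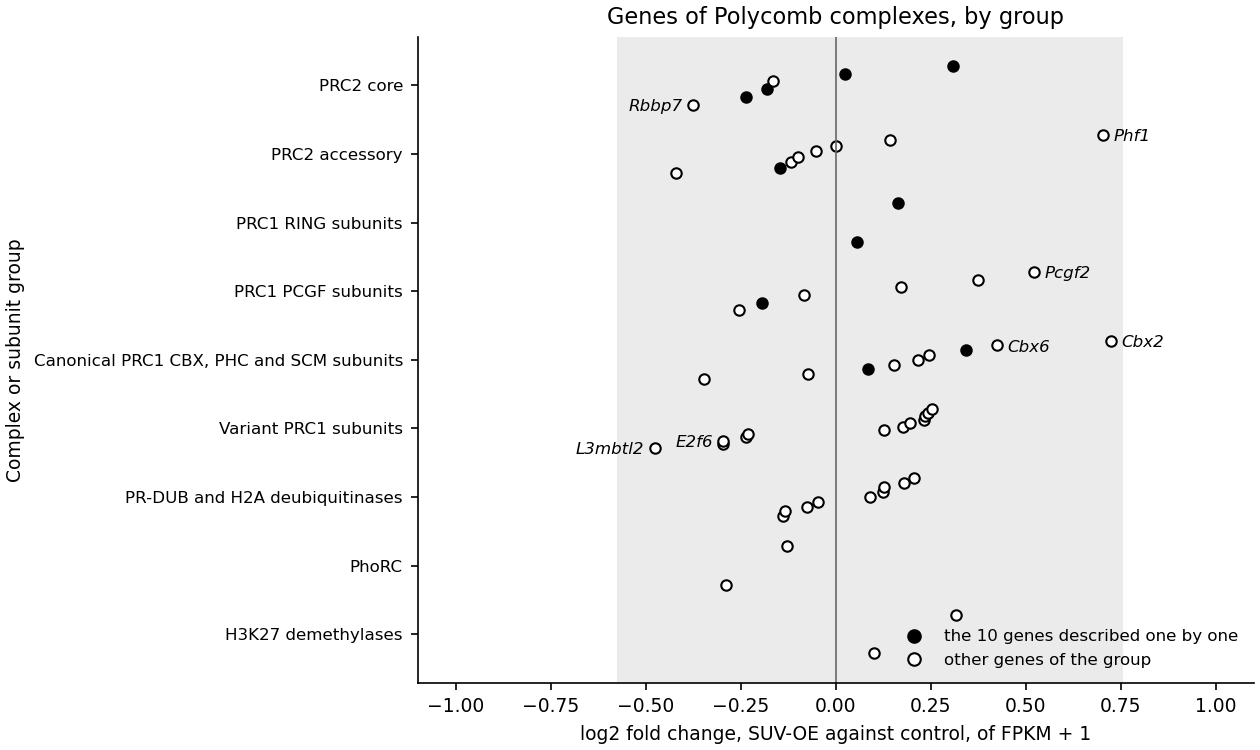
Log2 fold change (SUV-OE against control, of FPKM + 1) of the 56 tested genes of Polycomb complexes, by list. Filled points are the 10 members, open points the other 46 genes, names mark an unadjusted p under 0.05, and grey is the middle 90% of all tested genes; 0 of the 56 are DEGs and all 56 lie within the grey band.

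The variant PRC1 list held the other 2 genes that were lower in SUV-OE at an unadjusted p under 0.05. L3mbtl2, a chromatin-binding subunit of the E2F6 complex, was at 10.8 and 8.99 FPKM in the control and 6.77 and 6.85 FPKM in the SUV-OE libraries, with a log2 fold change of -0.48 (limma adjusted p = 0.158). E2f6, the DNA-binding repressor of the same complex, was at 30.6 and 29.5 FPKM in the control and 23.98 and 24.6 FPKM in the SUV-OE libraries, with a log2 fold change of -0.30 (limma adjusted p = 0.223). Rybp, which replaces the CBX proteins in variant PRC1, was at 4.64 and 4.51 FPKM in the control and 5.43 and 5.86 FPKM in the SUV-OE libraries, with a log2 fold change of 0.25 (limma adjusted p = 0.308). Of the enzymes that remove the Polycomb marks, no gene passed the unadjusted threshold. Asxl1, the cofactor of the H2A deubiquitinase BAP1, had a log2 fold change of 0.21, and the H2A deubiquitinase Usp16 had -0.14. Mbd6, a further subunit of the BAP1 complex, had 0.18. The H3K27 demethylases Kdm6a and Kdm6b had 0.0998 and 0.32, and their groups overlapped. Yy1 and Sfmbt1, of the DNA-binding PhoRC, had -0.13 and -0.29. The 6 genes under the filter were Scml2, Scml4, Auts2, Asxl3, L3mbtl1 and Sfmbt2, named for that reason, and the limma fit left them out. Without the filter, limma called 0 genes of the wider list. In limma-voom, Scml4 (log2 fold change 1.07), Auts2 (0.69), L3mbtl1 (-1.29) and Sfmbt2 (2.33) were among the 9 genes with an unadjusted p under 0.05. The limma-voom adjusted p of Scml4, Auts2 and L3mbtl1 lay between 0.106 and 0.187. Sfmbt2 rested on 7 and 5 reads in the control against 24 and 41 reads in the SUV-OE libraries. Its control reads were below the filter of a mean of 10 reads, which it passed through the SUV-OE libraries, so its difference is given as a description.

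Among 5 cyclin-dependent kinase inhibitor genes that Polycomb complexes are known to silence, 0 were DEGs and 1 had an unadjusted p under 0.05 with limma (20.7% of all tested genes). Limma-voom gave the same counts over the 3 genes with recovered reads (24.3% of all genes in that fit). Cdkn2a, the locus best known as a target of BMI1, was at 7.90 and 5.87 FPKM in the control and 4.71 and 3.70 FPKM in the SUV-OE libraries. Both SUV-OE libraries were lower, as in 28.4% of all tested genes, with a log2 fold change of -0.59 (limma adjusted p = 0.187). Cdkn1c was also lower in both, at 1.99 and 1.89 FPKM against 1.49 and 1.21 FPKM, with a log2 fold change of -0.32 (limma adjusted p = 0.306). Cdkn2b, Cdkn2c and Cdkn1a overlapped between the groups, with log2 fold changes of 0.045, 0.081 and -0.14. Cdkn1a was at 7.68 and 15.0 FPKM in the SUV-OE libraries, a wider gap than between the groups. The paper, by contrast, reported Cdkn1a, Cdkn1c and Cdkn2c as higher in SUV-OE cells, and it measured cell cycle genes by qRT-PCR.

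Exons of 5 members shared bases with a gene on the opposite strand, and the library kit does not mark the strand, so that reads there could belong to either gene. The shared part was 6.82% of the exon bases of Eed (with E230029C05Rik), 3.83% of Rnf2 (Trmt1l), 3.60% of Suz12 (Gm26563), 2.61% of Ezh2 (Gm26625) and 1.54% of Cbx7 (Apobec3). Ezh1, Jarid2, Bmi1, Cbx8 and Ring1 had no such overlap.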

How the data were processed

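RNA was sequenced from c-Kit+ AML cells of 2 control and 2 SUV-OE samples, grouped by their titles. According to the study's methods and the submitters' processing notes, the authors used the TruSeq RNA v2 kit, paired-end sequencing, CASAVA 1.8 and TopHat2 with mm10. The authors deposited FPKM values, 1 per gene and library; the paper names Cufflinks, with its version and annotation not given in the sources used here. For all 10 members, FPKM times the GENCODE M21 exon length gave whole reads in each library, as for 78.5% of rows (tolerance 0.01); 114 identifiers were not in GENCODE M21. No count column was used. The authors' DESeq2 needs counts, so limma 3.58.1 (R 4.3.3) was used on log2(FPKM + 1), with an intensity trend, the group as its only term and Benjamini-Hochberg adjustment over 13736 genes whose mean reached 0.5 FPKM. SUV-OE was compared with control.

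Recovered reads with a mean of at least 10 entered limma-voom with median-of-ratios scaling, which was added after the data were seen. Counting intervals are 95% intervals and cover counting error only. Other alternatives were the pseudocount, the filter, scaling, the trend and leaving out each library. Members and lists were chosen with earlier results of these data known. Named genes were the members, Suv39h1 and Kit, up to 3 genes with the smallest p of each Polycomb list, all 5 CDK inhibitors and up to 4 cell cycle genes; others (Mki67, Rbbp4, genes under the filter) were named after their values were seen. Sequences came from RefSeq (GRCm38.p6).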

Additional observations from a re-analysis of the deposited data

How the results depend on the processing

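The count of 0 members called held under every alternative tried. The number of members with an unadjusted p under 0.05, 0 in the limma fit, was 1 under median-of-ratios scaling (Ezh1), between 0 and 1 with 1 library left out (Ezh1 without control replicate 3, Jarid2 without control replicate 4), and 2 with limma-voom on recovered reads, added after the data were seen (Ezh1 and Cbx7). The median log2 fold change of the members lay between -0.087 (without control replicate 4) and 0.12 (without control replicate 3) with 1 library left out. In the same fits the log2 fold change reversed in 7 of 40 values, in 4 of the 10 members: Jarid2 ran from -0.35 to 0.056 (reversed without control replicate 3), Ezh2 from -0.029 to 0.077 (reversed at -0.026 without control replicate 4 and without SUV-OE replicate 3), Cbx8 from -0.052 to 0.22 (reversed at -0.021 without control replicate 4 and at -0.052 without SUV-OE replicate 2) and Ring1 from -0.17 to 0.28 (reversed without control replicate 4 and, at -0.0085, without SUV-OE replicate 3). A group left with 1 library was assumed to vary like the other. All 80 values of single members under the 8 other alternatives kept their direction and their side of the threshold, but quantile normalization moved Suz12 from -0.18 to -0.034, Bmi1 from -0.19 to -0.107, Jarid2 from -0.15 to -0.079, Eed from -0.24 to -0.157 and Ezh2 from 0.024 to 0.126. With 1 library left out and no reversal, Suz12 ran from -0.25 to -0.11, Eed from -0.37 to -0.10, Rnf2 from 0.066 to 0.26 and Cbx7 from 0.23 to 0.46. The log2 difference of the ratio of Cbx7 to Cbx8 was 0.26 with 1 added to each FPKM, against 0.38. The log2 difference of the ratio of Ezh1 to Ezh2 ran from 0.20 (without SUV-OE replicate 2) to 0.46 (without SUV-OE replicate 3), and that of Ring1 to Rnf2 from -0.35 (without control replicate 4) to 0.13 (without control replicate 3). No paired analysis was possible because control (3 and 4) and SUV-OE (2 and 3) have 1 replicate number in common. The cause of these differences was not tested. With 2 libraries per group, differences below the width of the intervals could not be resolved.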
